A study of Gallus gallus with 6 samples.

Results

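The genes described here encode the machinery of mitosis: the cyclin-dependent kinases that start it, the kinases that order it, the kinetochore that links chromosomes to the spindle, the motors that move the spindle, and the condensins that fold chromosomes. They were picked by symbol from the table of differentially expressed mRNAs, as kinesins (KIF), centromere proteins (CENP), cyclins A, B, D and E (CCN), cell division cycle genes (CDC, CDCA), cyclin-dependent kinases and their partners (CDK), and the BUB, AURK, PLK, NCAP, SMC, NUF2, NDC80, SPC2, SKA and TACC symbols, with TOP2A, BIRC5, GTSE1 and KPNA2. The replication genes CDC6 and CDC45 and the CDC42 symbols were left out. The rule found 39 genes among the 1480 listed mRNAs. It also took in genes whose best known work lies outside mitosis, among them CDK5RAP3, CCND3 and CDC2L1.

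RNA of the left livers of Arbor Acres breeder roosters, all untreated and killed after a period without feed, was sequenced after removal of ribosomal RNA in 6 strand-specific libraries. The mature group has 3 libraries, each from the liver of 1 rooster aged 40 weeks. The immature group has 3 libraries, each from the pooled liver RNA of 4 male chicks aged 1 day. Age therefore cannot be told apart from single birds against pools, and the spread between single chicks was averaged within each pool. The deposited table gives each mRNA a single FPKM in each group, its fragments scaled by transcript length and by the number of mapped fragments, with no value per library and no count. Each value is the authors', without an error, so no test across libraries was made and the number of fragments behind each value is unknown. The paper reports more mapped reads, and a higher share of reads mapped, in every mature library than in any immature one. Every listed mRNA had been selected by the authors for a difference between these groups, and all 1480 differ by over 2-fold in the ratio of their FPKM. That a gene is listed is therefore not a finding here, and what is described is its direction, its size and its level. A gene that is not listed has no value here.

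In a dividing cell, CDK1 with a cyclin triggers entry into mitosis, Polo-like and Aurora kinases mature the centrosomes and build the spindle, and kinetochore proteins assemble on each centromere and hold the microtubules. The checkpoint kinase BUB1 delays the exit until every chromosome is attached. CDC20 then switches on the anaphase-promoting complex, which destroys cyclins and frees the sister chromatids. Most of these genes are transcribed mainly late in the cell cycle, so their RNA in a tissue is widely used as a measure of how many cells divide. Hepatocytes divide in the growing liver and are mostly quiescent in the adult one.

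Of the 39 genes, 35 were listed lower in mature livers and 4 higher. Among the 4, the difference of PLK3 changed sign once differences were centred on the median of all listed mRNAs. That median comes from mRNAs selected as differing, so it is not a point of no change. By direction alone, 45.1% of all listed mRNAs were lower and 54.9% higher. The paper's own list of differentially expressed mRNAs is a different one, and most of those mRNAs were lower in mature livers. The shares given here hold for the deposited list only. On the log2(FPKM + 1) scale, which adds 1 FPKM before the logarithm and so understates the change of low genes, 29 were lower by over 2-fold and 3 were higher by over 2-fold. The same direction and size were seen in 29.8% of all listed mRNAs for lower and 35.9% for higher. The median log2 difference, mature minus immature livers, was -1.73 over the 39 genes and 0.64 over all 1480 mRNAs. The summed level of the 39 genes was 64.5 FPKM in mature livers, against 351 FPKM in immature livers. All 1480 listed mRNAs summed to 269591 FPKM in mature livers and 123615 FPKM in immature livers, and the highest of them had 150944 FPKM in mature livers. FPKM are scaled to the mapped fragments, and the part of this shift in the levels of the 39 genes was not tested. In a bulk sample, fewer dividing cells and less RNA per dividing cell cannot be told apart.

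**Figure D1:**
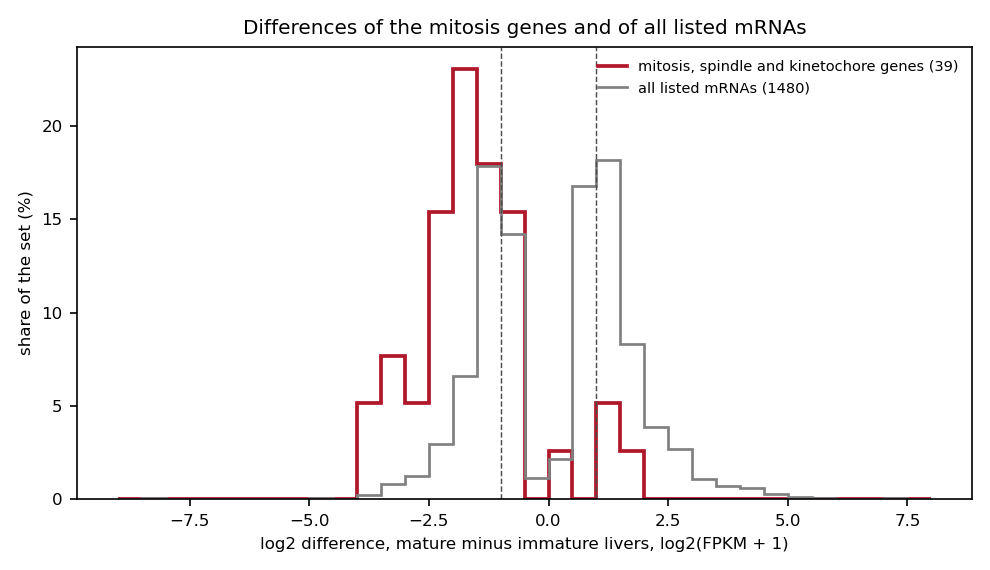
Share of each set (%, vertical axis) by log2 difference, mature minus immature livers on log2(FPKM + 1) (horizontal axis), for the 39 mitosis genes and all 1480 listed mRNAs, with dashed lines at 2-fold. Of the mitosis genes 29 lie left of the lower line and 3 right of the upper one, while the listed mRNAs as a whole fall on both sides.

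The levels were low in mature livers. The median of the 39 genes was 0.888 FPKM in mature livers and 4.91 FPKM in immature livers, where the median of all listed mRNAs was 3.71 FPKM in mature and 3.25 FPKM in immature livers. In mature livers 22 of the 39 genes (56.4%) were under 1 FPKM, and in immature livers 2 were. Over all listed mRNAs 19.9% were under 1 FPKM in mature livers and 26.8% in immature livers. A level over 10 FPKM was reached by 1 of the 39 genes, CCND3, in mature livers, and by 9 genes in immature livers. Of all 1480 listed mRNAs, 441 were over 10 FPKM in mature livers and 409 in immature livers. The median gene by immature level, BUB1, lay above 59.3% of all listed mRNAs in immature livers. The median gene by mature level, NUF2, lay above 18.1% of them in mature livers. Single genes lay far from these medians, up to 89.3% for CDK1 in immature livers and 71.4% for CCND3 in mature livers. Since 35 of the 39 genes were listed lower in mature livers, their low mature levels partly restate that direction.

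Among the 35 lower genes the ratio of immature to mature FPKM ran from 2.27 for CDK5RAP3 to 29.2 for NCAPD3, with a median of 7.80. It was over 10 for 14 of them (40.0%). Of all 668 lower mRNAs of the table, 60 (8.98%) had a ratio over 10, and the median ratio was 3.01. The 5 mRNAs listed at 0 in mature livers have no ratio. They are among the 668 but not the 60, so the share is slightly understated, and they were left out of the median. In the text below, a gene called n-fold lower has n as the ratio of its immature to its mature FPKM, without the added 1 FPKM.

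**Figure D2:**
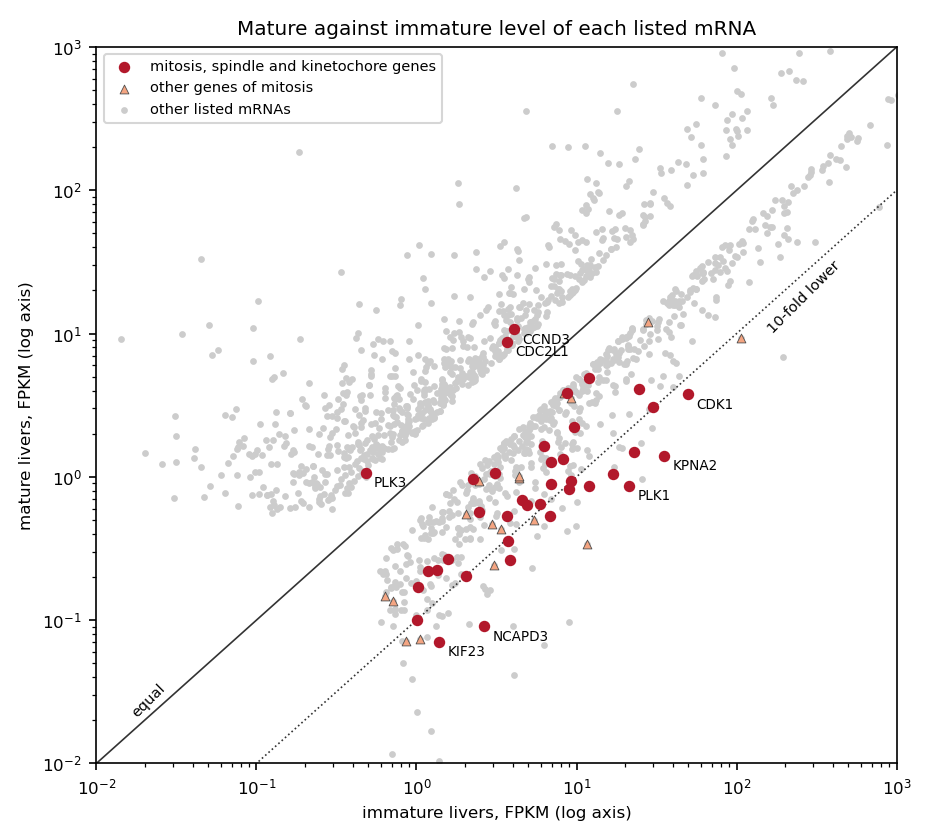
FPKM in mature livers (vertical log axis) against FPKM in immature livers (horizontal log axis), 1 point per listed mRNA, with the lines of equal level and of a 10-fold lower level in mature livers. CDKN2B and other mRNAs listed at 0 in a group, or beyond the axes, are not drawn. Of the mitosis genes 14 lie beyond the 10-fold line and 21 between it and the line of equality, where most of the 17 transcripts of other mitosis genes lie as well. CCND3, CDC2L1 and PLK3 lie above equality, and the empty band along the line of equality is the 2-fold limit of the table. The difference of PLK3 changes sign when differences are centred on the median of all listed mRNAs, which is not a point of no change.

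The group of cyclins, CDKs and their regulators was split, with 4 of 7 genes lower in mature livers and 3 higher, all by over 2-fold on log2(FPKM + 1), and a median log2 difference of -1.01. Among all listed mRNAs 29.8% were lower and 35.9% higher by over 2-fold, so a split in both directions is not particular to this group. CDK1 (ENSGALG00000003085), the kinase that drives entry into mitosis, had 3.76 FPKM in mature livers, against 49.8 FPKM in immature livers, where it was the highest of the 39 genes (13.3-fold lower, log2 difference -3.42). Its locus in the file spans chromosome 6 from 8089075 to 8170935; the study names the Galgal5 assembly, but the file states no build for its positions. CCNA2, the A-type cyclin that activates CDK1 and CDK2 (chromosome 4, 53350843 to 53358654), had 0.822 FPKM in mature and 9.02 FPKM in immature livers (11.0-fold lower). The kinase and its cyclin kept a similar proportion, CDK1 being at 4.57 times the level of CCNA2 in mature livers and 5.52 times in immature livers. CDKN3, a phosphatase that removes the activating phosphate from CDKs, had 0.537 FPKM in mature and 6.87 FPKM in immature livers (12.8-fold lower).

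CDC20, the activator of the anaphase-promoting complex (chromosome 8, 18577131 to 18597605), had 1.48 FPKM in mature livers, against 22.7 FPKM in immature livers (15.3-fold lower, log2 difference -3.26). It was the only listed gene of that complex under the rule. No cyclin B or cyclin E gene was listed under those symbols.

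The 3 higher genes of this group are best known for roles other than those of the genes above. CCND3, a D-type cyclin of early cell cycle entry that is also used in lymphocytes (chromosome 26, 5055511 to 5110780), had 10.7 FPKM in mature livers and 4.08 FPKM in immature livers (2.62 times higher, log2 difference 1.20). CDC2L1, named cell division protein kinase 11 in the file and known for work in transcription and splicing (chromosome 21, 2016220 to 2039529), had 8.75 FPKM in mature and 3.67 FPKM in immature livers (2.38 times higher, log2 difference 1.06). CDKN2B, an inhibitor that holds back the cyclin D kinases (chromosome Z, 78463098 to 78466508), had 1.97 FPKM in mature livers and was listed at 0 in immature livers, so no fold is given. These are the 3 genes higher by over 2-fold, and by the grouping used here none of them is in the spindle or the kinetochore group. Whether any of them also acts in mitosis was not examined. With all differences centred on the median of the listed mRNAs, which takes off 0.64, CDKN2B was at 0.92, CCND3 at 0.56 and CDC2L1 at 0.42, all short of 2-fold. That median is over selected mRNAs and is not a point of no change. The locus of CCND3 in the file is shared with BYSL, and that of CDC2L1 with MMP23B, so their values carry the uncertainty of overlapping genes.

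CDK5RAP3, first named as a partner of a neuronal CDK regulator and now mostly known from protein modification at the endoplasmic reticulum, had the smallest ratio of the lower genes. It had 3.86 FPKM in mature and 8.76 FPKM in immature livers (2.27-fold lower, log2 difference -1.01).

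**Figure D3:**
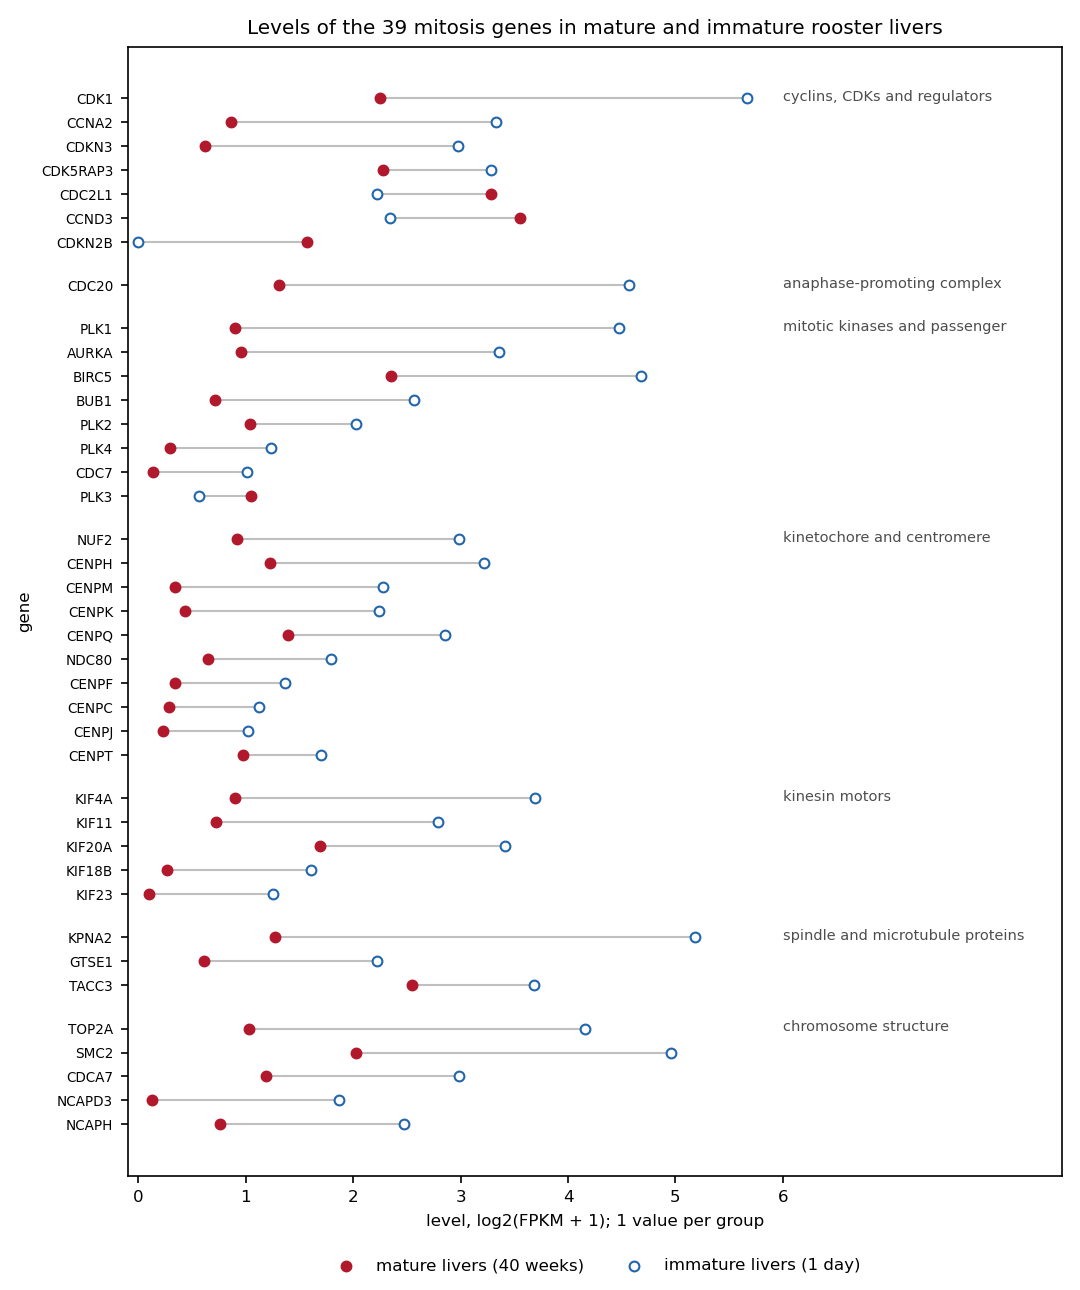
Level of each of the 39 genes on log2(FPKM + 1) (horizontal axis) in mature livers (filled points) and immature livers (open points), 1 value per group, grouped by role. In 35 genes the filled point lies left of the open one. It lies to the right for CDC2L1, CCND3, CDKN2B and PLK3. The difference of PLK3 changes sign when differences are centred on the median of all listed mRNAs, which is not a point of no change.

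Among the kinases of mitosis, PLK1 and AURKA were far lower in mature livers while other Polo-like kinases differed less. PLK1 (ENSGALG00000006110; chromosome 14, 6884684 to 6889434), which acts in centrosome maturation, the spindle and cytokinesis, had 0.869 FPKM in mature livers, against 21.2 FPKM in immature livers (24.4-fold lower, log2 difference -3.57). AURKA, the centrosomal Aurora kinase (chromosome 20, 12364635 to 12376458), had 0.940 FPKM in mature and 9.27 FPKM in immature livers (9.86-fold lower). PLK1 was thus at 2.29 times the level of AURKA in immature livers, and at 0.925 times that level in mature livers.

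The Polo-like kinase family was spread widely. PLK4, which starts the duplication of centrioles, had 0.224 FPKM in mature and 1.35 FPKM in immature livers (6.01-fold lower). PLK2, known from stress responses and from the early cell cycle, had 1.06 FPKM in mature and 3.08 FPKM in immature livers (2.91-fold lower). Both missed 2-fold on log2(FPKM + 1), PLK2 at -0.99 and PLK4 at -0.94. PLK3, a stress-responsive member, had 1.07 FPKM in mature and 0.480 FPKM in immature livers, a log2 difference of 0.48 that missed 2-fold and became -0.16 after centring on the median of all listed mRNAs. In mature livers PLK1, PLK2 and PLK3 were therefore listed at nearly the same level, between 0.869 and 1.07 FPKM, whereas in immature livers PLK1 stood far above the rest.

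The other members of this group include BIRC5, which is not a kinase but a partner of one. BUB1, the checkpoint kinase at kinetochores, had 0.637 FPKM in mature livers, against 4.91 FPKM in immature livers (7.72-fold lower). CDC7, a kinase that fires replication origins and so works before mitosis, had 0.0994 FPKM in mature and 1.01 FPKM in immature livers (10.2-fold lower). Its log2 difference of -0.87 missed 2-fold on the scale with 1 FPKM added, which shows how that scale compresses low genes. BIRC5, or survivin, which anchors the chromosomal passenger complex at centromeres, had 4.11 FPKM in mature and 24.6 FPKM in immature livers (6.0-fold lower). Its locus in the file, chromosome 3 from 14764583 to 14765717, spans only 1135 bases. BIRC5 kept one of the highest mature levels among the lower genes, behind TACC3.

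All 10 listed genes of the kinetochore and centromere group were lower in mature livers, 7 of them by over 2-fold on log2(FPKM + 1). The shares among all listed mRNAs were 45.1% lower and 29.8% lower by over 2-fold. The outer kinetochore binds microtubules through a complex whose core pair is NDC80 and NUF2. NUF2 (chromosome 8, 5439100 to 5453611) had 0.888 FPKM in mature and 6.92 FPKM in immature livers (7.80-fold lower). NDC80 (chromosome 2, 100833462 to 100875360) had 0.570 FPKM in mature and 2.46 FPKM in immature livers (4.31-fold lower). The partners work in equal numbers as proteins, yet the RNA of NUF2 was at 1.56 times that of NDC80 in mature livers and 2.82 times in immature livers. CENPF, a large microtubule-binding protein of the outer kinetochore in mitosis, had 0.268 FPKM in mature and 1.58 FPKM in immature livers (5.89-fold lower).

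The inner kinetochore, the layer that stays on centromeres through the cell cycle, had 6 genes under the rule on symbols. CENPM was 14.6-fold lower, at 0.262 FPKM in mature and 3.83 FPKM in immature livers. CENPK was 10.5-fold lower, at 0.354 FPKM in mature and 3.72 FPKM in immature livers. CENPH, which binds CENPK, was 6.17-fold lower, at 1.34 FPKM in mature and 8.28 FPKM in immature livers. The folds of the 6 genes of this layer ran from 2.34 to 14.6, with a median of 5.75. Those of the 3 genes of the outer layer ran from 4.31 to 7.80, with a median of 5.89. A range over more genes tends to be wider, so the ranges do not set the layers apart.

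CENPQ had 1.63 FPKM in mature and 6.25 FPKM in immature livers (3.83-fold lower). CENPC, which links centromeric chromatin to the other proteins, had 0.220 FPKM in mature and 1.17 FPKM in immature livers (5.34-fold lower). CENPT, a second such link to the outer layer, had 0.964 FPKM in mature and 2.26 FPKM in immature livers (2.34-fold lower, the smallest fold of the inner layer). CENPC and CENPT missed 2-fold on log2(FPKM + 1), with differences of -0.83 and -0.73. CENPJ, a centriole protein in spite of its symbol, missed it as well, with 0.171 FPKM in mature and 1.03 FPKM in immature livers (6.0-fold lower, log2 difference -0.79).

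A further centromere gene, CenpA, was left outside the rule by the letter case of its symbol. It encodes the histone that marks centromeres, and it had 1.03 FPKM in mature livers, against 9.21 FPKM in immature livers (8.96-fold lower). The inner kinetochore gene APITD1, also known as CENPS, had 0.763 FPKM in mature and 6.22 FPKM in immature livers (8.16-fold lower). Both were named after their values were seen.

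The 5 listed kinesins were all motors of mitosis. All were lower by over 2-fold on log2(FPKM + 1), against 29.8% of all listed mRNAs. KIF4A, a motor on chromosome arms that also shapes the central spindle (chromosome 4, 1248526 to 1266105), had 0.869 FPKM in mature and 12.0 FPKM in immature livers (13.8-fold lower, log2 difference -2.79). KIF11, the motor that pushes spindle poles apart (chromosome 6, 20271496 to 20297711), had 0.650 FPKM in mature and 5.90 FPKM in immature livers (9.08-fold lower). KIF18B, which shortens astral microtubules, had 0.203 FPKM in mature and 2.04 FPKM in immature livers (10.1-fold lower). None of the kinesins that carry cargo in resting cells was listed.

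The remaining motors work in cytokinesis. KIF23, the motor of centralspindlin, had 0.0707 FPKM in mature livers, the lowest mature level of the 39 genes, and 1.39 FPKM in immature livers (19.7-fold lower). With 1 FPKM added its log2 difference was -1.16, the smallest of the 5 motors, so its place in the family depends on the scale. Its partner in centralspindlin, RACGAP1, lies outside the rule and was 7.81-fold lower, with 0.432 FPKM in mature and 3.37 FPKM in immature livers. KIF20A, which brings the passenger complex to the central spindle, had 2.22 FPKM in mature and 9.68 FPKM in immature livers (4.37-fold lower, log2 difference -1.73). The file gives KIF20A the same locus as a listed antisense lncRNA, TCONS_00015896 (chromosome 13, 9352365 to 9397110). That lncRNA had 0.966 FPKM in mature and 3.39 FPKM in immature livers.

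KPNA2 (ENSGALG00000003584; chromosome 18, 6953314 to 6960639), an importin that carries proteins into the nucleus and holds spindle assembly factors inactive, showed the most negative log2 difference of the 39 genes, -3.92. It had 1.41 FPKM in mature livers, against 35.4 FPKM in immature livers (25.1-fold lower). GTSE1, a microtubule protein of the late cell cycle that also restrains p53, had 0.530 FPKM in mature and 3.67 FPKM in immature livers (6.93-fold lower). TACC3, which with clathrin cross-links the microtubules of the spindle, had 4.86 FPKM in mature and 11.9 FPKM in immature livers (2.45-fold lower, log2 difference -1.14). TACC3 was thus the highest of the lower genes in mature livers.

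Of the genes that shape chromosomes, all 5 were lower by over 2-fold on log2(FPKM + 1), against 29.8% of all listed mRNAs. TOP2A, the topoisomerase that untangles sister chromatids (ENSGALG00000003922; chromosome 27, 4416637 to 4434189), had 1.05 FPKM in mature livers, against 16.9 FPKM in immature livers (16.1-fold lower, log2 difference -3.13). CDCA7, which helps to recruit a chromatin remodeller, had 1.28 FPKM in mature and 6.93 FPKM in immature livers (5.42-fold lower).

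Condensins are rings of SMC proteins closed by subunits that set their type. SMC2, shared by both types (chromosome Z, 66288452 to 66312320), had 3.08 FPKM in mature and 30.0 FPKM in immature livers (9.75-fold lower). NCAPH, of condensin I, had 0.690 FPKM in mature and 4.54 FPKM in immature livers (6.58-fold lower). NCAPD3, of condensin II (chromosome 24, 2516224 to 2552997), had 0.0903 FPKM in mature and 2.64 FPKM in immature livers (29.2-fold lower). The shared subunit was at 4.47 times the level of NCAPH in mature livers and 6.61 times in immature livers. Against NCAPD3 it was at 34.1 times in mature livers and 11.4 times in immature livers. The order of the condensin genes depends on the scale: NCAPD3 had the largest ratio, on a mature value close to 0 that carries no error, while on log2(FPKM + 1) the difference was -2.93 for SMC2, -1.74 for NCAPD3 and -1.71 for NCAPH.

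The same direction was seen in genes of mitosis outside the rule. From a list of 92 such genes, drawn up with earlier results of these data known, 16 were listed, with 17 transcripts because INCENP has a pair of them. All 17 were lower in mature livers, 10 by over 2-fold on log2(FPKM + 1), and their median log2 difference was -1.17. Over all listed mRNAs 45.1% were lower and 29.8% lower by over 2-fold. Outside the rule, 22 listed mRNAs carried one of 7 GO terms of mitosis chosen after the data were seen, some of them also on this list, and of these 16 were lower and 6 higher. CKS1B, a small subunit that docks CDKs on their substrates, had 9.28 FPKM in mature livers, against 106 FPKM in immature livers (11.4-fold lower). CKAP2, a spindle protein, had 0.341 FPKM in mature and 11.6 FPKM in immature livers (34.2-fold lower). Several of these genes are direct partners of the genes above.

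TPX2, which activates AURKA on the spindle, had 0.242 FPKM in mature and 3.07 FPKM in immature livers (12.7-fold lower). NEK2, which separates centrosomes, had 0.501 FPKM in mature and 5.40 FPKM in immature livers (10.8-fold lower). The INCENP transcripts, from the scaffold of the complex that holds BIRC5, were 6.39-fold and 2.64-fold lower, with 0.467 and 0.929 FPKM in mature livers, against 2.98 and 2.46 FPKM in immature livers. MAD2L1, the checkpoint protein that inhibits CDC20, differed less, with 3.53 FPKM in mature and 9.20 FPKM in immature livers (2.60-fold lower).

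Transcription factors known to drive genes of late cell cycle phases were also listed lower. FOXM1 had 1.01 FPKM in mature and 4.40 FPKM in immature livers (4.33-fold lower), and MYBL2 had 0.974 FPKM in mature and 4.37 FPKM in immature livers (4.48-fold lower). RAD21, a cohesin subunit that cells keep outside mitosis as well, had the highest mature level of the list, 12.1 FPKM, against 28.1 FPKM in immature livers (2.32-fold lower). The 7 transcripts that missed 2-fold on the scale with 1 FPKM added were DSCC1, MIS18A, SGOL1, the second transcript of INCENP, CEP55, NUSAP1 and HAUS1. They had log2 differences from -0.97 to -0.52.

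By the authors' KEGG annotation, 18 listed mRNAs belonged to the cell cycle pathway, and 16 of them were lower in mature livers. The paper, from its own list, reports more differentially expressed mRNAs in this pathway. CCNA2 and CDC7 do not carry this annotation here. The rule covers 6 of the 18, namely PLK1, BUB1, CDC20, CDK1, CCND3 and CDKN2B, so that the exceptions in this pathway are CCND3 and CDKN2B. The other 12 include the replication helicase genes MCM2 to MCM6 and the origin genes ORC1 and ORC4, and all 12 were lower, 9 by over 2-fold, against 45.1% and 29.8% of all listed mRNAs. These 12 also hold CDC6 and CDC45, which the rule left out. MAD2L1 and RAD21, counted above among the genes of mitosis outside the rule, are among them too.

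The 39 genes lay on 20 chromosomes, with 5 on chromosome 4 and 5 on chromosome Z. The Z share was 12.8%, against 6.08% of all listed mRNAs, and all birds were males. Within 20000 bases, 10 listed mRNAs lay beside 7 of the 39 genes, of which 6 had the same direction as the mitosis gene and 4 the opposite one. Neighbours of the other listed mRNAs were not counted, so whether these counts are particular to the mitosis genes was not tested. The limit was chosen after the data were seen, and CDC6, lower like TOP2A, lies just outside it, 20622 bases away. The opposite direction was seen for 1 neighbour each of TOP2A, PLK1, KIF18B and CCND3. IGFBP4, a carrier of insulin-like growth factors 8106 bases from the locus of TOP2A, had 97.3 FPKM in mature livers and 13.7 FPKM in immature livers. ERN2, a stress sensor of the endoplasmic reticulum 498 bases from PLK1, had 4.47 FPKM in mature and 1.44 FPKM in immature livers. FMNL1, an actin regulator of leukocytes 8324 bases from KIF18B, had 4.83 FPKM in mature and 1.44 FPKM in immature livers.

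Other neighbours were lower together with the mitosis gene. NDUFAB1, a gene of a mitochondrial protein 17861 bases from PLK1, had 27.0 FPKM in mature and 79.0 FPKM in immature livers. BBS7, a gene of primary cilia 157 bases from CCNA2, had 0.662 FPKM in mature and 1.62 FPKM in immature livers. ACAD8, a mitochondrial enzyme of valine breakdown 5584 bases from NCAPD3, had 6.35 FPKM in mature and 18.5 FPKM in immature livers, and ENSGALG00000001604, 12701 bases from it, had 0.175 FPKM in mature and 1.66 FPKM in immature livers. The locus of CCND3 had a neighbour of each direction. BYSL, a ribosome assembly gene that shares the locus of CCND3, had 8.86 FPKM in mature and 18.1 FPKM in immature livers, opposite to CCND3. Next to the same locus, 4613 bases away, CHIA, an acidic chitinase, had 357 FPKM in mature and 4.81 FPKM in immature livers.

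Of the 622 listed lncRNAs, 4 lay within 100000 bases of a mitosis gene, beside 3 of the 39 genes. The lncRNAs near other listed mRNAs were not counted for comparison. The antisense lncRNA at KIF20A is described above. TCONS_00056737, an intergenic lncRNA 310 bases beyond the locus of CDK1, had 0.396 FPKM in mature and 1.12 FPKM in immature livers, a difference of under 2-fold on log2(FPKM + 1). A pair of intergenic lncRNA transcripts 5769 bases from CDC2L1 (chromosome 21, 2045298 to 2141828) had 56.3 and 54.0 FPKM in mature livers, against 0.876 and 1.01 FPKM in immature livers. These were the only listed lncRNAs near a mitosis gene with a higher level in mature livers, and the gene beside them, CDC2L1, was itself higher.

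**Figure D4:**
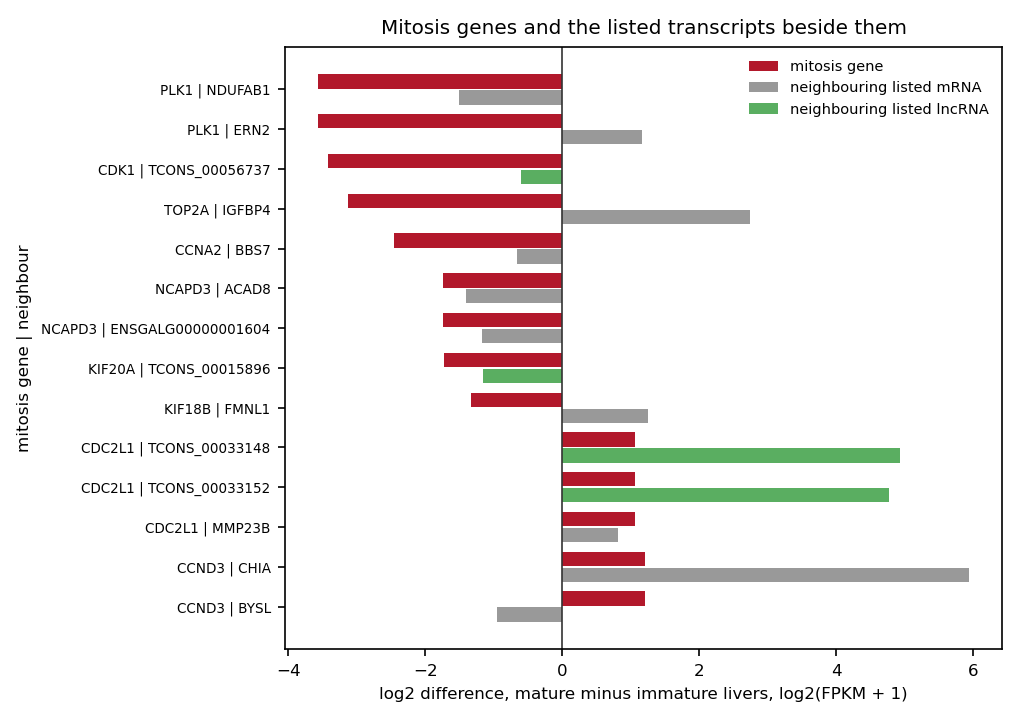
Log2 difference, mature minus immature livers on log2(FPKM + 1) (horizontal axis), of the mitosis genes that have a listed neighbour, and of each listed mRNA within 20000 bases or lncRNA within 100000 bases, 1 pair per line. The neighbours of TOP2A, KIF18B and CCND3 include genes on the opposite side of 0, as does 1 neighbour of PLK1, while the lncRNAs are on the same side as their gene.

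Some markers of blood and other cells were listed, and every listed mRNA differs between the groups. Only the direction and level of listed markers are described, and markers that are not listed have no value here. Of 24 genes of erythroid cells, which chick liver and blood contain, 3 were listed, all lower, with a summed level of 7.98 FPKM in mature livers, against 41.2 FPKM in immature livers. The lower sum came mostly from the transferrin receptor gene TFRC, which other dividing cells also use, at 7.33 FPKM in mature and 35.7 FPKM in immature livers. The globin gene HBE1 had 0.0909 FPKM in mature and 3.99 FPKM in immature livers. Leukocyte markers went the other way. Of 13 genes of T and natural killer cells 6 were listed, all higher, summing to 97.9 FPKM in mature and 11.5 FPKM in immature livers. By direction alone, 45.1% of all listed mRNAs were lower and 54.9% higher.

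Of 11 macrophage genes 5 were listed, all higher, summing to 776 FPKM in mature and 125 FPKM in immature livers. Of 8 markers of B cells and plasma cells 3 were listed, all higher, at 12.5 FPKM in mature and 0.601 FPKM in immature livers. The share higher over all listed mRNAs was 54.9%. Of 14 hepatocyte genes only AHSG, the fetuin gene, was listed, at 269 FPKM in mature and 2625 FPKM in immature livers, and the other 13, albumin included, have no value here. Among 8 mesenchymal genes COL1A2 alone was listed, at 8.82 FPKM in mature and 52.5 FPKM in immature livers. Of 7 endothelial genes VWF was higher and STAB2 lower, summing to 42.4 FPKM in mature and 24.0 FPKM in immature livers, and none of 5 cholangiocyte genes was listed. No listed marker was at 0 in either group. The part of these cells in the levels of the mitosis genes was not tested.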

How the data were processed

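Total RNA of rooster livers was sequenced by the authors in 6 libraries, 3 mature and 3 immature. In the tables the authors deposited, each of 1480 mRNAs and 622 lncRNAs has an FPKM for each group. The submitters' processing notes name FastQC, Bowtie2 2.0.6, TopHat, Cufflinks, Cuffdiff and DESeq with no roles. The study's methods name TopHat and Bowtie for mapping to the Galgal5 assembly and StringTie for assembly and FPKM. The transcripts used here have TCONS identifiers, while the lncRNAs named in the paper have MSTRG identifiers. Its Results also give other counts of differing mRNAs and lncRNAs than the deposited ones. Its Discussion gives another split of lncRNAs, higher and lower in mature livers, whose total equals the 622 deposited. The legend of its lncRNA list names Cufflinks for the newly assembled transcripts. Whether the FPKM used here come from the StringTie run of the paper is therefore not known. The file headers name no build, and RACGAP1 lies on a linkage group name known from an earlier assembly, so positions are printed as deposited and the build was not verified. The sources used here do not say how the libraries of a group were combined. Both tables also hold the authors' log2 fold changes, p-values and calls, which were not used.

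FPKM were compared as mature minus immature livers on log2(FPKM + 1), and a gene was counted past 2-fold beyond a difference of 1 in either direction. Without values per library no test, error or interval could be had. The planned test by limma and the leaving out of single libraries were therefore not run. Every gene found by the rule on symbols is named. Members and lists were chosen with earlier results of these data known. Of the 39 symbols, 37 are current RefSeq symbols of the GRCg7b assembly, which was used for names only. No sequence is shown, and the planned search of promoters for motifs was not run. GO annotation of 116 mRNAs was not used here. Python 3.11.15 with pandas 2.3.3 and numpy 2.4.6 was used. The computation was tested on simulated levels with planted folds and no noise. That test added no pseudocount, so it checked the arithmetic and not the scale used here.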

Additional observations from a re-analysis of the deposited data

How the results depend on the processing

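No paired analysis was possible because the tables hold 1 value per group, and the same holds for leaving out libraries. The count of 29 lower genes stayed between 22 and 35 under every alternative tried. With no pseudocount, the counts had to equal the split by direction, since every listed mRNA differs by over 2-fold in FPKM ratio. The 3 higher genes became 4 with a pseudocount of 0.1 FPKM, 4 with none, 2 with a mean of at least 1 FPKM, 0 with a 3-fold threshold and 0 with differences centred on the median of all listed mRNAs. Over all listed mRNAs, the shares past 2-fold were 43.4% lower and 53.0% higher with a pseudocount of 0.1 FPKM. They were 45.1% and 54.9% with none, and 34.9% and 40.8% over the mRNAs with a mean of at least 1 FPKM. Past 3-fold were 10.2% of all listed mRNAs for lower and 16.3% for higher. Without the 3 genes that share a locus with another listed transcript, an alternative chosen after the data were seen, 1 was higher. The median log2 difference of -1.73 was -2.56 with a pseudocount of 0.1 FPKM, -2.79 with none (CDKN2B, listed at 0 in immature livers, ranked as the highest), -1.85 over the 31 genes with a mean of at least 1 FPKM, -2.37 after centring and -1.77 without the genes that share a locus. Centring moved the split over all listed mRNAs to 668 lower and 222 higher past 2-fold, against 441 and 532 without it. Those 668 are all the mRNAs lower by direction, so on the lower side centring only recounted direction. Of the 39 genes, 38 kept their sign under the pseudocounts and the centring, and PLK3 did not. A pseudocount cannot change a sign, and centring lowers every difference, so only the 4 higher genes could have changed sign. That the 35 lower genes kept theirs is therefore no result. No number of fragments can be given for these values, and those under 1 FPKM carry no error.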

Other observations

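The authors' GO annotation gives a view of mitosis genes that does not rest on symbols; its terms were chosen after the data were seen. All 8 of the 39 genes annotated to the kinetochore were lower in mature livers, and so were the 7 other listed mRNAs with this term (APITD1, NEK2, MAD2L1, CenpA, MTBP, DYNC1I1 and SGOL1). For the centromeric region the 7 of the 39 genes and the 7 other mRNAs were all lower as well. Over all listed mRNAs 45.1% were lower. The terms overlap, as APITD1, MAD2L1, CenpA and SGOL1 hold both. NEK2, MAD2L1, SGOL1, DSCC1 and MIS18A were also counted above among the genes of mitosis outside the rule. The term for microtubule motor activity was held by 5 listed mRNAs, all of them kinesins among the 39 genes.

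Broader terms went in both directions outside the rule. Of 7 other mRNAs annotated to cell division, 4 were lower and 3 higher, and of 5 annotated to the spindle, 2 were lower and 3 higher. Among all listed mRNAs 45.1% were lower and 54.9% higher. MASTL, the kinase that keeps a mitotic phosphatase in check, had 0.196 FPKM in mature livers, against 1.54 FPKM in immature livers (7.85-fold lower), and ARPP19, its substrate, had 11.7 FPKM in mature and 27.1 FPKM in immature livers (2.31-fold lower). Among the higher ones, MYH9, a non-muscle myosin of the cell cortex, had 52.4 FPKM in mature and 16.7 FPKM in immature livers. ANXA11, a calcium-binding annexin, had 20.1 FPKM in mature and 5.58 FPKM in immature livers. The other higher mRNAs outside the rule with any of the GO terms were KLHL22, SNX9, SPAST and RGS14. By the ratio of mature to immature FPKM they were 3.00, 2.56, 2.46 and 2.16 times higher. Of these, KLHL22, SPAST and RGS14 missed 2-fold on log2(FPKM + 1).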
